A study of Caenorhabditis elegans with 12 samples.

Results

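The miR-63 family of Caenorhabditis elegans was followed in 3 worm strains that model Parkinson's disease. Its members on the array were the probes named cel-miR-63, cel-miR-64, cel-miR-65, cel-miR-66 and cel-miR-229. The choice was made by name, but with earlier results of these data known. They are 5 of the 114 C. elegans microRNA probes on the array, and all 5 were among the 50 probes with enough signal to be tested. In the gene table of WBcel235, mir-229, mir-64, mir-65 and mir-66 follow each other in that order as 4 consecutive genes, between gcn-1 and C39B5.6, and mir-63 lies on another chromosome between F39B3.3 and lec-9. The question was whether the clustered members behaved like each other and like miR-63.

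MicroRNAs guide Argonaute proteins to messenger RNAs through their seed, a short stretch near the 5′ end, and lower the output of those messages. As background from microRNA catalogues, these 5 microRNAs carry a common seed and so could bind the same sites, while the rest of each sequence differs to a varying degree. Neighbouring microRNA genes are often copied as 1 primary transcript, and miR-63 must come from a transcript of its own. miR-64 and miR-65 are nearly identical in sequence, so a probe for one can also capture the other, and the signals of these 2 probes cannot be told apart from shared RNA. What the family does in the worm is little defined.

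Each array set the small RNA of 1 strain against that of the wild-type strain N2. The first strain carries a transgene for human alpha-synuclein with the A53T change, a form of the protein that causes familial Parkinson's disease, and the labels do not give the promoter that drives it. The second, CB1111, carries the loss-of-function allele e1111 of cat-1, which encodes the transporter that loads monoamines such as dopamine into vesicles. The third, VC1024, carries the loss-of-function allele gk448 of pdr-1, the worm gene for the ubiquitin ligase parkin. N2, with none of these changes, was the partner on every array. All worms were whole animals at larval stage 4, synchronized, grown at 20 °C on OP50 bacteria, from 4 independent populations per strain and 4 N2 preparations per the labels. The labels do not say which N2 preparation served which array, so arrays of different strains may share one. In RNA from whole worms, fewer cells that make a microRNA and less of it per cell cannot be told apart.

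The files of cat-1 replicates 3 and 4 were identical and were counted as 1 array, called replicate 3, which left 11 arrays, of which 4 hold the alpha-synuclein strain, 3 hold cat-1 and 4 hold pdr-1. A ratio of strain over N2 could be formed for 13 to 54 probes per array, fewest on alpha-synuclein replicate 4 (13) and pdr-1 replicate 1 (14). The normalization curve of an array rested on 26 to 129 spots. The summed signal of the strain over that of N2 ran from -0.23 to 5.12 on the log2 scale, the highest on alpha-synuclein replicate 3. Blank spots held a signal on the cat-1 arrays (15, 18 and 18 spots) and on pdr-1 replicate 2 (3 spots), and on 0 spots elsewhere. As a check of the stage, 5 larval microRNAs (let-7, lin-4, miR-48, miR-84 and miR-241) gave a signal on 7 to 11 arrays and 8 microRNAs of embryos (miR-35 to miR-42) on 0 to 2, while 4 microRNAs of larval tissues (miR-1, miR-124, miR-58 and miR-71) did so on 5 to 11.

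The strain is taken as the second channel of the labels, so strain over N2 is the likely direction and not a stated one. Dyes were not swapped, so a probe's own dye bias stays in each value against N2, and it cancels between strains only if it is the same on every array. The pdr-1 replicates 1 and 4 correlated at -0.59 over the 14 probes with a ratio on both arrays, although the labels give them the same dyes. With pdr-1 replicates 2 and 3, replicate 1 correlated at 0.025 and -0.022, and replicate 4 at 0.043 and 0.42. With arrays of the other strains, replicate 1 ran from -0.23 to 0.68 and replicate 4 from -0.097 to 0.52. The direction of pdr-1 replicates 1 and 4 is not settled. Values with either of them turned are given below.

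The members differed in how often they could be measured. miR-63, miR-64 and miR-65 gave a ratio on 11 of 11 arrays, from 2 or more spots on 7, 10 and 9 of them. miR-66 gave one on 8, with no signal on cat-1 replicate 1 and pdr-1 replicates 1 and 2. miR-229 gave one on 7, with no signal on alpha-synuclein replicate 4 and pdr-1 replicates 1, 2 and 4. Of the 33 spots per member over all arrays, the strain channel and the N2 channel held a signal on 31 and 31 spots for miR-64, 29 and 28 for miR-65, 23 and 21 for miR-63, 17 and 16 for miR-66 and 17 and 14 for miR-229. Over the 165 spots of the family, 7 held a signal in the strain channel alone and 0 in the N2 channel alone, and 5 of the 7 were on alpha-synuclein replicate 3, the array with the largest excess of strain signal. Mean spot signals are given in units of 1000 scanner units and are compared only within 1 probe.

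For miR-63, the member outside the cluster, the strain signals on alpha-synuclein replicates 1 to 4 were 639, 1522, 2603 and 1036, against 638, 468, 98.9 and 375 for N2. On the cat-1 arrays the strain signals were 1621, 2015 and 444, against 1008, 1062 and 448 for N2. On the pdr-1 arrays they were 2713, 2918, 3746 and 1227, against 1061, 528, 434 and 494 for N2. These raw signals were higher in the strain on 10 of 11 arrays, as the summed signals of most arrays also were. On alpha-synuclein replicate 1, counted among the 10, they were nearly equal to N2, and on cat-1 replicate 3 they were lower.

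For miR-64, the second gene of the cluster, the alpha-synuclein strain gave 434, 1566, 1488 and 3280, against 1475, 1301, 70.5 and 2526 for N2. The cat-1 strain gave 1887, 557 and 863, against 1277, 485 and 1469 for N2. The pdr-1 strain gave 2716, 3078, 1389 and 1998, against 2255, 430, 531 and 875 for N2. The strain signal was below that of N2 on alpha-synuclein replicate 1 and cat-1 replicate 3, and above it on the other arrays.

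For miR-65, the third gene, the alpha-synuclein strain gave 694, 2409, 2926 and 3027, against 1332, 1749, 126 and 1900 for N2. The cat-1 strain gave 607, 611 and 1201, against 401, 509 and 2301 for N2. The pdr-1 strain gave 1019, 3532, 2243 and 1196, against 815, 734, 708 and 393 for N2. The arrays with the strain signal below that of N2 were the ones named for miR-64.

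**Figure D1:**
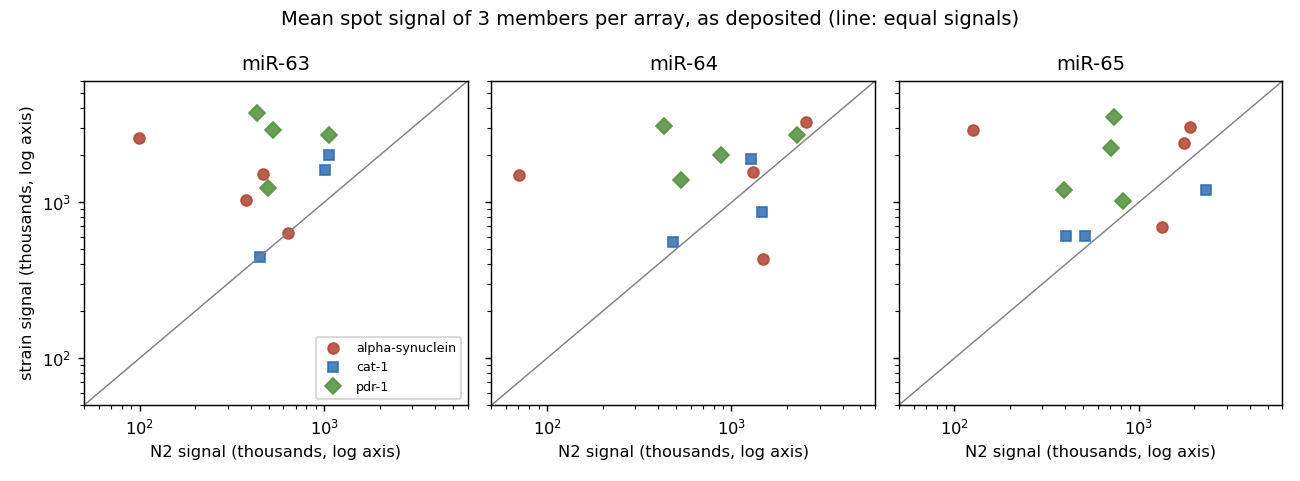
Mean spot signals of miR-63, miR-64 and miR-65 on each array, strain (vertical) against N2 (horizontal), both in units of 1000 scanner units on log axes, with a line where both are equal. Most points lie above the line, and alpha-synuclein replicate 3 stands far to the left with N2 signals of 98.9, 70.5 and 126.

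After loess normalization, which removes from each array the trend of the log ratio with brightness, the log2 ratios of miR-63 on alpha-synuclein replicates 1 to 4 were 0.71, -0.28, -0.096 and 0.34. Its ratios were -0.12, 0.11 and -0.44 on the cat-1 arrays and 0.35, 0.019, 0.86 and -0.29 on the pdr-1 arrays. They fell on both sides of 0 in every strain, with 6 of 11 above it.

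For miR-64 the normalized log2 ratios were -1.23, -1.13, -0.047 and 0.10 on the alpha-synuclein arrays, -0.27, -0.46 and -0.87 on the cat-1 arrays and -0.40, 0.34, -0.96 and -0.27 on the pdr-1 arrays. For miR-65 they were -0.74, -0.81, 0.075 and 0.32 on the alpha-synuclein arrays, -0.19, -0.42 and -0.98 on the cat-1 arrays and -0.56, -0.017, -0.60 and -0.060 on the pdr-1 arrays. Each of the 2 lay below 0 on 9 of 11 arrays, and all 3 cat-1 ratios of both were below 0.

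For miR-66, the last gene of the cluster, the alpha-synuclein ratios were -0.14, -0.32, 0.18 and -1.16. The cat-1 ratios were 0.13 and 0.80 on replicates 2 and 3, and the pdr-1 ratios were -1.005 and -0.020 on replicates 3 and 4. Both cat-1 values lay above 0 and both pdr-1 values below it, each from 2 arrays. For miR-229, the first gene of the cluster, the ratios were 0.71, 0.44 and -0.27 on alpha-synuclein replicates 1 to 3, -0.24, 0.13 and -0.047 on the cat-1 arrays and 0.19 on pdr-1 replicate 3. The miR-229 values on alpha-synuclein arrays rest on 1 spot each.

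**Figure D2:**
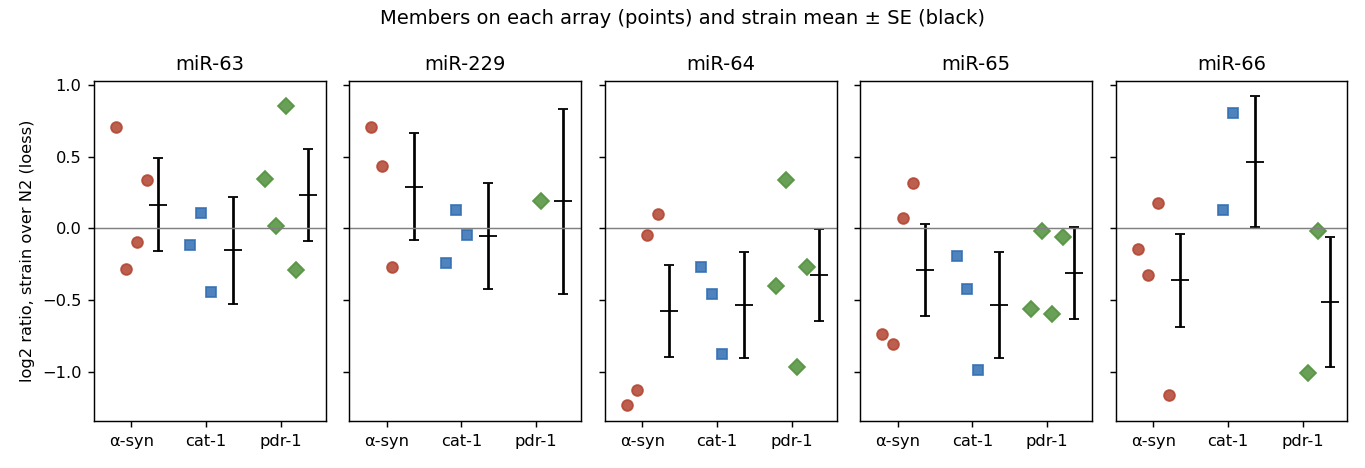
Loess-normalized log2 ratio of strain over N2 for each member on each array (points), with the strain mean and its SE from limma in black. miR-64 and miR-65 lie mostly below 0, and miR-63 lies on both sides. miR-66 has only 2 points in cat-1 and 2 in pdr-1, and the difference of these strains had a limma adjusted p of 0.981.

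The error between spots of the same array was 0.30 for miR-64, 0.32 for miR-63, 0.41 for miR-66, 0.55 for miR-65 and 0.59 for miR-229 (pooled SD, log2). The SD between arrays of a strain was 0.56 for miR-64, 0.43 for miR-63, 0.58 for miR-66, 0.45 for miR-65 and 0.38 for miR-229. The spot values are for single spots, while an array value is the mean of up to 3 spots. The limma fit used 1 SD of 0.64 for all tested microRNAs, which lies above the array SD of each member.

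No member passed the test against N2 in the alpha-synuclein strain, where 5 of 50 tested microRNAs did (10%), by limma with Benjamini-Hochberg adjustment at 0.05. At an unadjusted p under 0.05 by limma there were 0 members and 9 of the 50 microRNAs. The mean log2 change was -0.58 ± 0.32 for miR-64 (SE, n = 4, 95% interval -1.21 to 0.058, limma adjusted p = 0.287) and -0.29 ± 0.32 for miR-65 (n = 4, -0.92 to 0.35, limma adjusted p = 0.641). miR-63 stood at 0.17 (n = 4, -0.47 to 0.80), miR-66 at -0.36 (n = 4, -0.995 to 0.27) and miR-229 at 0.29 (n = 3, -0.44 to 1.02). The member median was -0.29, against 0.14 over all 50 tested.

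With each array centred on its median in place of loess, miR-64 was lower in the alpha-synuclein strain at -0.999 (limma adjusted p = 0.0262), among 8 calls of 50 (16%). With 1 array left out at a time it passed in 9 of 11 cases, with limma adjusted p-values from 0.0017 to 0.211. Leaving out a cat-1 or pdr-1 array left the value itself at -0.999, so those cases do not test it. Of the alpha-synuclein arrays, miR-64 passed without replicate 3 or 4 (limma adjusted p = 0.0017 and 0.0346). It no longer passed without replicate 1 or 2. Centring on summed signals gave -0.97 (limma adjusted p = 0.0529). Fitted on the alpha-synuclein arrays alone, the loess value of miR-64 had a limma adjusted p of 0.604.

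In the cat-1 strain 0 of 5 members passed, and 0 of 48 tested microRNAs did (0%), with 0 members and 4 microRNAs at an unadjusted p under 0.05 by limma. miR-64 and miR-65 stood side by side at -0.53 each (SE 0.37, n = 3, 95% intervals -1.26 to 0.20), with 3 of 3 arrays below 0. miR-63 stood at -0.15 (n = 3, -0.88 to 0.58) and miR-229 at -0.052 (n = 3, -0.78 to 0.68). miR-66 was the one member above 0, at 0.46 ± 0.45 (n = 2, -0.43 to 1.36). All 5 had a limma adjusted p of 0.980. The part in these values of the signal seen in cat-1 blank spots was not tested.

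In the pdr-1 strain 0 of 5 members passed, against 0 of 48 tested microRNAs (0%), with 0 members and 2 microRNAs at an unadjusted p under 0.05 by limma. miR-65 stood at -0.31 ± 0.32 (SE, n = 4, 95% interval -0.94 to 0.32), below 0 on 4 of 4 arrays, and miR-64 at -0.32 (n = 4, -0.96 to 0.31). miR-66 stood at -0.51 (n = 2, -1.41 to 0.38), miR-63 at 0.23 (n = 4, -0.40 to 0.87) and miR-229 at 0.19 on 1 array, which gives no spread of its own in this strain. The errors of all members come from the SD that the fit shares over all tested microRNAs. All 5 had a limma adjusted p of 0.905. With replicate 1 turned, miR-65 stood at -0.029, miR-64 at -0.12 and miR-63 at 0.059. With replicate 4 turned, they stood at -0.28, -0.19 and 0.38.

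Taking the 3 strains together with equal weight, 0 of 5 members passed, against 0 of 46 tested microRNAs (0%) by limma. At an unadjusted p under 0.05 there were 8 microRNAs, and miR-64 was the one member among them, next by p-value after let-7, miR-48 and miR-83. Its mean log2 change was -0.48 ± 0.20 (SE, n = 11, 95% interval -0.86 to -0.092, limma adjusted p = 0.178). miR-65 stood at -0.38 ± 0.20 (n = 11, -0.76 to 0.0093, limma adjusted p = 0.273). miR-63 at 0.082 (-0.30 to 0.47), miR-66 at -0.14 (-0.61 to 0.34) and miR-229 at 0.14 (-0.40 to 0.69) each had a limma adjusted p of 0.889. The member median was -0.14, against 0.070 over the 46 tested. With median centring, miR-64 at -0.68 (limma adjusted p = 0.0228) and miR-65 at -0.58 (limma adjusted p = 0.0453) passed, among 5 calls of 46 (10.9%). With 1 array left out at a time, miR-64 passed in 7 of 11 cases, lost without alpha-synuclein replicate 2, cat-1 replicate 1 or 3, or pdr-1 replicate 3, and miR-65 in 4 of 11, lost without alpha-synuclein replicate 2 or 4, cat-1 replicate 1, 2 or 3, or pdr-1 replicate 1 or 3. With pdr-1 replicate 1 turned neither passed (-0.51 and -0.41, limma adjusted p = 0.126 and 0.236), and with replicate 4 turned miR-64 alone did (-0.61 and -0.58, limma adjusted p = 0.0447 and 0.0544). With centring on summed signals they stood at -0.64 and -0.54 with limma adjusted p-values of 0.0641 and 0.0820. With no normalization at all they stood above 0, at 0.76 and 0.86, where the median of all tested microRNAs stood at 1.56.

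**Figure D3:**
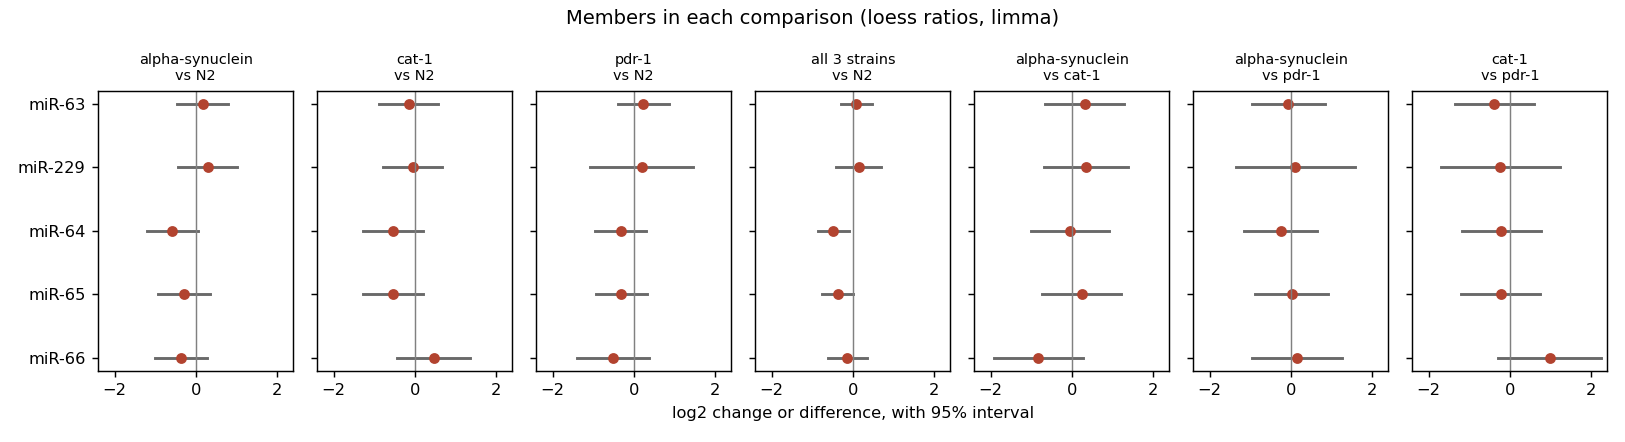
Log2 change of each member in the 7 comparisons (points) with the 95% interval from limma on loess-normalized ratios. All 35 intervals include 0 except that of miR-64 over all 3 strains, -0.86 to -0.092, which had an adjusted p of 0.178.

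By mean log2 ratio, with N2 at 0, the order for miR-64 was N2, pdr-1, cat-1 and alpha-synuclein, and for miR-65 N2, alpha-synuclein, pdr-1 and cat-1. N2 stood highest for both. For miR-63 the order was pdr-1, alpha-synuclein, N2 and cat-1, for miR-66 cat-1, N2, alpha-synuclein and pdr-1, and for miR-229 alpha-synuclein, pdr-1, N2 and cat-1. With pdr-1 replicate 1 turned, the pdr-1 mean of miR-63 stood below that of alpha-synuclein (0.059 against 0.17), and with replicate 1 or 4 turned that of miR-65 stood above alpha-synuclein (-0.029 or -0.28 against -0.29), while the other 3 orders held. No neighbours in any of these orders differed by limma after adjustment.

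No member passed a test between strains. For the alpha-synuclein strain minus cat-1, 0 of 5 members and 0 of 48 tested microRNAs passed (0%), with 0 members and 4 microRNAs at an unadjusted p under 0.05 by limma. The largest member difference was that of miR-66, whose mean was -0.36 in alpha-synuclein and 0.46 in cat-1, a difference of -0.83 ± 0.56 (SE, 95% interval -1.92 to 0.27, limma adjusted p = 0.865). The other 4 differences ran from -0.044 for miR-64 to 0.34 for miR-229.

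For alpha-synuclein minus pdr-1, 0 of 5 members passed and 1 of 48 microRNAs, let-7, did (2.08%), with 0 members and 4 microRNAs at an unadjusted p under 0.05 by limma. The member differences ran from -0.25 for miR-64 (95% interval -1.15 to 0.64) to 0.15 for miR-66 (-0.95 to 1.25). For cat-1 minus pdr-1, 0 of 5 members and 0 of 46 microRNAs passed (0%), and 0 microRNAs had an unadjusted p under 0.05 by limma. miR-66 averaged 0.46 in cat-1 and -0.51 in pdr-1, a difference of 0.98 ± 0.64 (SE, 95% interval -0.29 to 2.24, limma adjusted p = 0.981), while the other 4 differences ran from -0.38 for miR-63 to -0.21 for miR-64. The intervals are wide, and smaller differences between strains were not detectable with this number of arrays.

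The members were next compared with each other on the same array, which needs no scaling between arrays. For each of the 10 pairs, the difference of the loess log2 ratios was tested over arrays with an exact two-sided sign-flip test and Benjamini-Hochberg adjustment over the 10. The test treats arrays as independent, which a shared N2 preparation would weaken, and a constant dye bias of a probe stays in the difference.

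miR-63 lay above miR-64 on 8 of 11 arrays and above miR-65 on 9 of 11. On alpha-synuclein replicates 1 to 4, miR-63 minus miR-64 was 1.94, 0.85, -0.049 and 0.23. It was 0.15, 0.56 and 0.43 on the cat-1 arrays and 0.75, -0.32, 1.82 and -0.027 on the pdr-1 arrays. The mean difference was 0.58 ± 0.22 (SE, n = 11, exact p = 0.0166, adjusted p = 0.122). On alpha-synuclein replicates 1 and 4, cat-1 replicate 3 and pdr-1 replicate 3 the miR-63 ratio rested on 1 spot. The largest differences, 1.94 and 1.82, came from such arrays, and the part of spot number in them was not tested. For miR-63 minus miR-65 the mean was 0.47 ± 0.18 (n = 11, exact p = 0.0244, adjusted p = 0.122), with strain means of 0.45 in alpha-synuclein, 0.38 in cat-1 and 0.54 in pdr-1. Neither passed after adjustment over the 10 pairs. With pdr-1 replicate 1 turned, the means for miR-64 and miR-65 were 0.44 and 0.30 (exact adjusted p = 0.293 and 0.352), and with pdr-1 replicate 4 turned they were 0.58 and 0.51 (exact adjusted p = 0.0732 each).

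With 1 constant per array in place of the loess curve, which gives the same pair differences for median centring, summed-signal centring or no centring, both passed. miR-63 minus miR-64 was then 0.78 ± 0.22 and miR-63 minus miR-65 was 0.66 ± 0.17 (SE, n = 11, exact test, adjusted p = 0.0391 each), each above 0 on 10 of 11 arrays, the exception being pdr-1 replicate 2 for miR-64 and pdr-1 replicate 4 for miR-65. With each array left out in turn, both kept passing in 5 of 11 cases, and the exact adjusted p ran from 0.0195 to 0.0781. They no longer passed without alpha-synuclein replicate 1, 2 or 4, cat-1 replicate 2 or 3, or pdr-1 replicate 1. With pdr-1 replicate 1 turned, whose direction is not settled, neither passed (0.57 and 0.46, exact adjusted p = 0.130 each), and with replicate 4 turned both did (0.75 and 0.71, exact adjusted p = 0.0488 and 0.00977). Under loess the adjusted p without 1 array ran from 0.0781 to 0.244. Why the curve and the constant differ was not tested. Pairs of other microRNAs were not put to the same test, so these passes cannot be set against a share of all pairs.

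**Figure D4:**
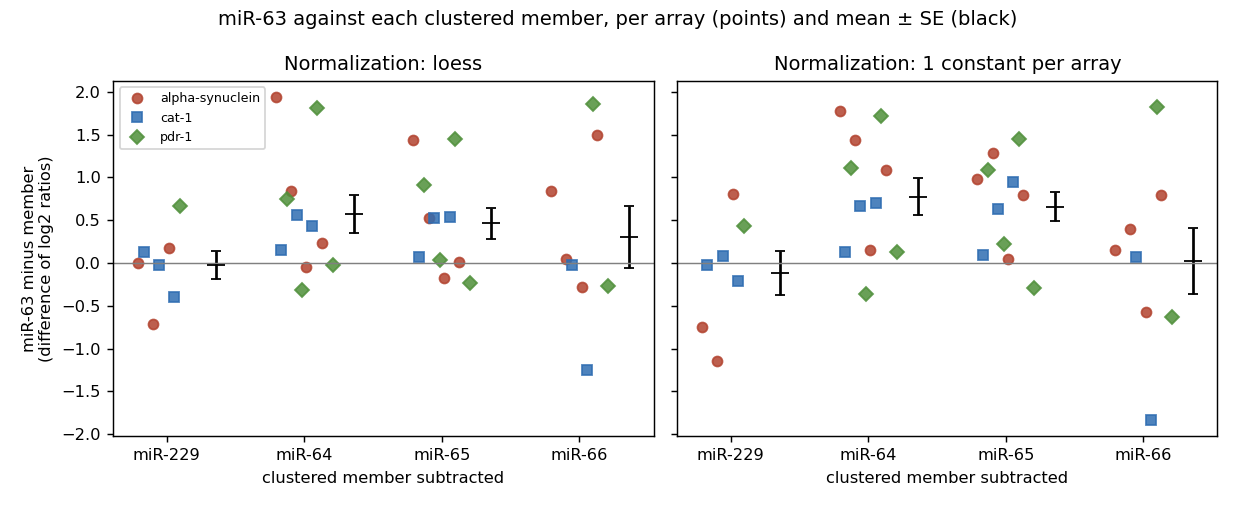
Difference of log2 ratios, miR-63 minus each clustered member, per array (points) with mean and SE (black), under loess (left) and under 1 constant per array (right). The means for miR-64 and miR-65 are 0.58 and 0.47 on the left and 0.78 and 0.66 on the right, while those for miR-229 and miR-66 lie within an SE of 0.

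The mean differences of miR-63 from miR-229 and miR-66 were smaller and did not pass. miR-63 minus miR-229 averaged -0.025 ± 0.17 (SE, n = 7, exact test, adjusted p = 0.891), and miR-63 minus miR-66 averaged 0.30 ± 0.36 (n = 8, exact test, adjusted p = 0.582) with values from -1.25 to 1.86.

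Within the cluster, miR-64 and miR-65 were the closest pair. Their difference, miR-64 minus miR-65, averaged -0.11 ± 0.075 (SE, n = 11, exact test, adjusted p = 0.344) with an SD of 0.25 over arrays, and it ran from -0.50 to 0.35. The SD of the other 9 pair differences ran from 0.44 to 1.03. The 2 microRNAs shared their sign on 9 of 11 arrays. With each array centred by a constant the SD of this difference was 0.35, still below the 0.56 to 1.38 of the other 9 pairs.

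The ratios of miR-229 and miR-66, the neighbours on either side, lay farther from theirs. miR-64 minus miR-229 averaged -0.84 ± 0.30 (SE, n = 7, exact p = 0.0469, adjusted p = 0.156) and was below 0 on 6 of 7 arrays, and miR-65 minus miR-229 averaged -0.65 ± 0.25 (n = 7, exact p = 0.0625, adjusted p = 0.156). miR-64 minus miR-66 averaged -0.41 (n = 8, exact adjusted p = 0.352), miR-65 minus miR-66 -0.21 (n = 8, exact adjusted p = 0.582) and miR-66 minus miR-229 -0.25 (n = 6, exact adjusted p = 0.582). The smallest p that the exact test can give is 0.000977 for 11 arrays, 0.00781 for 8, 0.0156 for 7 and 0.0312 for 6. Of the 10 pairs, 0 passed under loess and 2 under 1 constant per array, against 4 at an unadjusted exact p under 0.05 under 1 constant and 3 under loess.

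Seen array by array, the clustered members that gave a ratio all lay on the same side of 0 on 3 of 11 arrays, cat-1 replicate 1 and pdr-1 replicates 1 and 4. These are arrays on which 2 or 3 of the 4 gave a ratio, and on the 6 arrays with all 4 the count was 0. Their range on an array ran from 0.080 on cat-1 replicate 1 to 1.94 on alpha-synuclein replicate 1. On that last array miR-229 stood at 0.71 and miR-64 at -1.23. The lowest of the family was miR-64 or miR-65 on 7 of 11 arrays, or on 6 with pdr-1 replicate 1 turned.

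Likeness to other microRNAs was measured as the root mean square (RMS) difference of loess log2 ratios over shared arrays, as a description, since all microRNAs of an array share its RNA, dyes and curve. The probe nearest to miR-64 was miR-65 and the reverse, at 0.26 over 11 arrays, against a median of 0.81 over the 21 candidates for miR-64 and 0.66 over those for miR-65. Next came miR-80 for miR-64 (0.41, 11 arrays) and miR-56 for miR-65 (0.38, 9 arrays). The nearest to miR-63 were miR-55 (0.38, 8 arrays) and the probe shared by miR-44 and miR-45 (0.48, 8 arrays), and miR-65 and miR-64 came at places 6 and 16 of 21. The nearest to miR-66 were miR-82 (0.50) and miR-48 (0.65), both over 8 arrays, and those to miR-229 were miR-55 (0.33) and miR-239a (0.38), both over 6. Among the 27 candidates for miR-229, miR-63 came at place 3 (0.41, 7 arrays), ahead of its neighbours miR-66 at place 14, miR-65 at place 20 and miR-64 at place 24. miR-229 was not a candidate for miR-63, since they share fewer than 8 arrays. The median RMS difference was 0.89 for the 10 pairs of members and 0.89 for the 6 pairs within the cluster, against 0.88 for the 588 pairs of tested microRNAs with at least 6 shared arrays.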

How the data were processed

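The arrays were of the NCode kind with 2 colours. Per the labels, N2 RNA carried the dye called Alexa Fluor 3 on each array and RNA of a strain the dye called Alexa Fluor 5. The deposited scanner files give, per the file headers, a signal intensity and a flag letter for each channel of 4608 spots. They hold no background column, and the step that corrected the intensities is not given in the sources used here. In the 10 columns of the authors' deposited table that matched scanner files, values are log2 ratios of the second signal over the first, minus a constant. Medians of its alpha-synuclein columns were 0.071, 0.27, -0.056 and 0.40, those of cat-1 columns -0.026, 0.076, 0.030 and 0.13, and those of pdr-1 columns 0.20, 0.052, 0.19 and -0.026. Scale, centring and direction of the cat-1 replicate 4 column stay unknown. There were 0 further columns of per-sample values.

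Each of 114 C. elegans probes had 3 spots. S-flagged spots (2 of the members' spots) were dropped and a ratio needed a signal in both channels. Loess over the C. elegans spots of an array (span 0.3 with 4 iterations) normalized the log2 ratios, which were then averaged over the spots of a probe. It entered the fit if it gave a signal on 4 or more arrays. The fit used limma 3.58.1 in R 4.3.3, with 1 mean per strain and 1 spread. Tests were two-sided, and p-values were adjusted by Benjamini-Hochberg within each comparison, at a threshold of 0.05. The prior degrees of freedom were infinite. The code was checked on simulated data. The number of arrays limits the precision. Replicate numbers were not used to pair arrays in the main fit. Deviations of the 10 same-numbered pairs correlated between -0.78 and 0.11, with 1 pair over 0.1. Whether same-numbered arrays shared an N2 preparation was not tested.

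The 5 members were all named. For each, the 2 nearest probes by RMS difference were named too, over at least 8 shared arrays or, for miR-229, 6. let-7, miR-48 and miR-83 were named after their values were seen. Members and lists were chosen with earlier results of these data known. All 5 genes matched the RefSeq gene table of WBcel235, used for names and neighbours only. Alternatives concerned normalization, filters, flags, averaging, array weights, the strains in the fit, the replicate block, turned arrays, the deposited table and each array left out.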

Additional observations from a re-analysis of the deposited data

How the results depend on the processing

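Under loess 0 members passed in the 7 comparisons and 0 of 10 pairs. Median centring called 1 member in alpha-synuclein (miR-64, among 8 of 50 microRNAs) and 2 over all 3 strains (miR-64 and miR-65, among 5 of 46), and 2 pairs passed. Centring on summed signals called 0 members and passed 2 pairs. Without any normalization 1 member was called in alpha-synuclein (miR-229 at 2.45) and 3 over all strains (miR-63 at 1.51, miR-66 at 1.57 and miR-229 at 1.90), with 2 pairs passing. Of all tested microRNAs 18 of 50 (36%) and 33 of 46 (71.7%) were then called, and their median stood 1.69 higher in alpha-synuclein, 0.71 in cat-1, 2.09 in pdr-1 and 1.49 over all strains, and relative to that median miR-64 stood at -1.01, -0.75, -0.65 and -0.80. The deposited table called 2 members over all strains (miR-64 at -0.61 and miR-65 at -0.52) among 7 of all tested microRNAs, and passed 4 pairs. After its mismatched alpha-synuclein column was omitted it called 0 members and passed 0 pairs. Both results keep its separate cat-1 replicate 4 column, whose scale, centring and direction are unknown. Under median centring with pdr-1 replicate 1 turned, 1 member was called in alpha-synuclein, among 8 of all tested microRNAs. Over all strains 0 members were called, against 1 of all tested microRNAs, and 0 pairs passed. With replicate 4 turned, 1 member was called in alpha-synuclein among 8 of all tested microRNAs, 1 over all strains among 3, and 2 pairs passed. These turned and left-out arrays under median centring, the omitted column and the omission of arrays under 20 ratios were chosen after seeing the data. The causes were not tested.

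Signs turned for values that did not pass. Without normalization, alpha-synuclein miR-64, miR-65 and miR-66 stood at 0.82, 1.16 and 1.74, cat-1 miR-63, miR-64 and miR-229 at 0.53, 0.029 and 0.58, pdr-1 miR-64, miR-65 and miR-66 at 1.43, 1.46 and 1.63, and all strains miR-64, miR-65 and miR-66 at 0.76, 0.86 and 1.57 (the last passed). The strain differences then gave 0.79 (miR-64) and 0.41 (miR-66) for alpha-synuclein minus cat-1, -0.31 (miR-65) and -0.22 (miR-229) for alpha-synuclein minus pdr-1 and -0.30 (miR-66) for cat-1 minus pdr-1. miR-66 over all strains stood at 0.12 with median centring, 0.16 with summed signals, 0.020 with a loess span of 0.5, 0.094 with the deposited table and 0.14 without its mismatched column, and in alpha-synuclein at 0.016 and 0.16 with these tables. miR-65 for alpha-synuclein minus pdr-1 stood at -0.24 with median centring, -0.28 with summed signals, -0.11 with span 0.5, -0.058 with S-flag spots kept, -0.26 and -0.0088 with pdr-1 replicate 1 or 4 turned, -0.47 and -0.12 with the tables and -0.26 without arrays under 20 ratios. For alpha-synuclein minus cat-1 it stood at -0.020 with median centring and -0.0056 with summed signals. Scaling between arrays gave miR-64 0.40 and 0.049 for alpha-synuclein minus cat-1 and minus pdr-1. miR-229 for alpha-synuclein minus pdr-1 stood at -0.035 with summed signals, -0.014 with scaling and -0.35 without the mismatched column. miR-63 for that comparison stood at 0.11 with pdr-1 replicate 1 turned, and cat-1 miR-229 at 0.070 with the median of spots. Without the mismatched column, miR-63 minus miR-66, miR-63 minus miR-229 and miR-66 minus miR-229 were -0.027, 0.057 and 0.19.

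With the replicate number as a block, 0 members passed in any comparison, against 3 of all microRNAs for alpha-synuclein and 1 for alpha-synuclein minus pdr-1. miR-229 could not be tested against N2 there. miR-64 over all strains stood at -0.44 (limma adjusted p = 0.119), and miR-229 for alpha-synuclein minus pdr-1 turned to -0.17.

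With 1 array left out at a time, 0 members were called under loess, and 0 to 1 in alpha-synuclein and 0 to 2 over all strains under median centring. Ranges that crossed 0 were -0.013 to 0.32 for alpha-synuclein miR-63, -0.14 to 0.042 for cat-1 miR-229 and -0.30 to 0.028 for miR-66 over all strains under loess. miR-66 ran up to 0.38 over all strains, and from -0.54 to 0.047 in alpha-synuclein, over both normalizations. Means against N2 that kept their sign but moved by over 1.5 times under loess were those of alpha-synuclein miR-64 (-0.80 to -0.36), miR-65 (-0.49 to -0.11), miR-66 (-0.54 to -0.096) and miR-229 (0.084 to 0.57), cat-1 miR-63 (-0.28 to -0.0058), miR-65 (-0.70 to -0.31) and miR-66 (0.13 to 0.80), pdr-1 miR-63 (0.024 to 0.41), miR-64 (-0.54 to -0.11) and miR-66 (-1.005 to -0.020), and miR-63 (0.013 to 0.14) and miR-229 (0.073 to 0.24) over all strains. For alpha-synuclein minus cat-1, miR-64 ran from -0.27 to 0.18. For alpha-synuclein minus pdr-1 the ranges were -0.25 to 0.14 (miR-63), -0.18 to 0.19 (miR-65), -0.34 to 0.64 (miR-66) and -0.10 to 0.38 (miR-229), and for cat-1 minus pdr-1 -0.42 to 0.011 (miR-64) and -0.39 to 0.0023 (miR-65). Over loess and median centring together, 0 to 4 pairs passed, the 4 without pdr-1 replicate 3 under median centring, and the ranges were -0.23 to 0.53 for miR-63 minus miR-66, -0.27 to 0.090 for miR-63 minus miR-229, -0.86 to 0.016 for miR-65 minus miR-66 and -0.49 to 0.14 for miR-66 minus miR-229. Neither a background correction nor a block for slide or scan could be run, since the files record none of these. With a ratio on only 8 and 7 arrays, miR-66 and miR-229 had the largest SEs over all 3 strains in the main fit. These were 0.24 and 0.28, against 0.20 for each other member.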

Other observations

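The authors' deposited table holds a column for cat-1 replicate 4 that matches no scanner file used here, since the scanner file of that replicate repeats replicate 3. In that column the authors' deposited table gives log2 values of -0.95 for miR-64 (mean of 2 spots, -1.01 to -0.89), -0.88 for miR-65 (3 spots, -0.93 to -0.84), -0.02 for miR-66 (3 spots, -0.44 to 0.31) and -0.45 for miR-229 (3 spots, -0.73 to 0.11), and none for miR-63. The column's scale, centring and direction are unknown, so these values were kept apart from the loess-normalized ratios. They did enter the results from the deposited table given above, with and without its mismatched alpha-synuclein column.

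The alpha-synuclein replicate 2 column of the same table has the second signals of its scanner file attached to other spots. The SD of the difference between table and scanner ratios was 0.97 over 126 spots, and spots of the same probe spread by a pooled SD of 1.04 in the authors' deposited table and 0.46 in the scanner file. The scanner file was used.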
